A study of Mus musculus with 6 samples.

Results

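The Hox genes were read from messenger RNA of fibro-adipogenic progenitors (FAPs), the Pdgfra-positive mesenchymal progenitor cells of skeletal muscle. All protein-coding rows of the count table named Hoxa, Hoxb, Hoxc or Hoxd with a number were taken, which gave 39 genes of 54100 in the table: 11 of the HoxA cluster, 10 of HoxB, 9 of HoxC and 9 of HoxD. The cells were sorted from plantaris, a hindlimb muscle of the calf, of C57BL/6 mice, with 1000 cells in each tube, and 3 libraries came from sham muscle and 3 from overloaded muscle. No transgene or mutation is named for either group, while the way the load was applied, its duration and the age and number of the mice were not given in the sources used here. Nor do those sources tell whether a group's 3 libraries came from separate animals, and p-values therefore measure only the spread among these libraries, which may be technical.

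Hox proteins are transcription factors that bind DNA through a homeodomain. Their genes lie in 4 clusters, numbered by paralogue group from 1 to 13, and the order of the genes along a cluster follows the order in which they are switched on along the head-to-tail axis of the embryo. In the limb the posterior genes of the HoxA and HoxD clusters pattern the segments from shoulder or hip to digits, and posterior HoxC genes are a mark of the hindlimb. Connective tissue cells of the adult are known to keep part of this code. On the GRCm38 mouse genome build the clusters span chromosome 6, 52155590 to 52260880 (HoxA), chromosome 11, 96194316 to 96368256 (HoxB), chromosome 15, 102921103 to 103036852 (HoxC), and chromosome 2, 74668310 to 74765142 (HoxD).

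Most Hox genes are low in these libraries, so depth and background bear on every value. The highest by mean CPM were Hoxa10, Hoxc10 and Hoxc11. In sham they exceeded 74.7%, 67.1% and 57.7% of the genes with enough counts to test, and in overloaded muscle 46.8%, 55.2% and 55.1%. Sham libraries held 500402 to 754456 counts, of which 146 to 283 were of Hox genes, and overloaded libraries 850857 to 1124210, of which 185 to 240 were. Values are CPM, which are counts scaled to a common library size with TMM factors. Background was read from 1483 genes of olfactory and vomeronasal receptors, a class tied to sensory neurons of the nose. Their median was 0 CPM in both groups, and 99% of them lay at or under 7.30 CPM in sham and 4.05 CPM in overloaded muscle, although the highest reached 38.6 and 24.2 CPM. Summed over all receptor genes, sham libraries 1 to 3 held 1359, 1709 and 740 CPM of their totals, and the 3 overloaded libraries 291, 1058 and 222.

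FAPs of the plantaris carried a posterior Hox code, led by Hoxc10, Hoxa10 and Hoxc11. These 3 genes held 767 of the 1278 Hox counts. In each group 9 of the 39 genes exceeded the level that 99% of receptor genes stayed under. Both groups shared 8 of them: Hoxa10, Hoxa11, Hoxc6, Hoxc8, Hoxc9, Hoxc10, Hoxc11 and Hoxd8. Hoxa9 was the ninth in sham and Hoxc4 the ninth in overloaded muscle. Just inside the limit in sham stood Hoxc8 at 7.51 CPM, and just outside it Hoxd9 at 6.02 CPM. In overloaded muscle Hoxc4 at 6.84 CPM was the last inside and Hoxd11 at 2.41 CPM the first outside. The remaining genes stayed under that limit, and 9 had 0 counts in all 6 libraries, among them Hoxa6, Hoxb6, Hoxb8, Hoxb13, Hoxc12 and Hoxd12. A count of 0 over a group allows up to 1.56 CPM for sham and 1.11 for overloaded muscle (3 counts, counting error only), so these genes were not detectable at this depth.

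**Figure D1:**
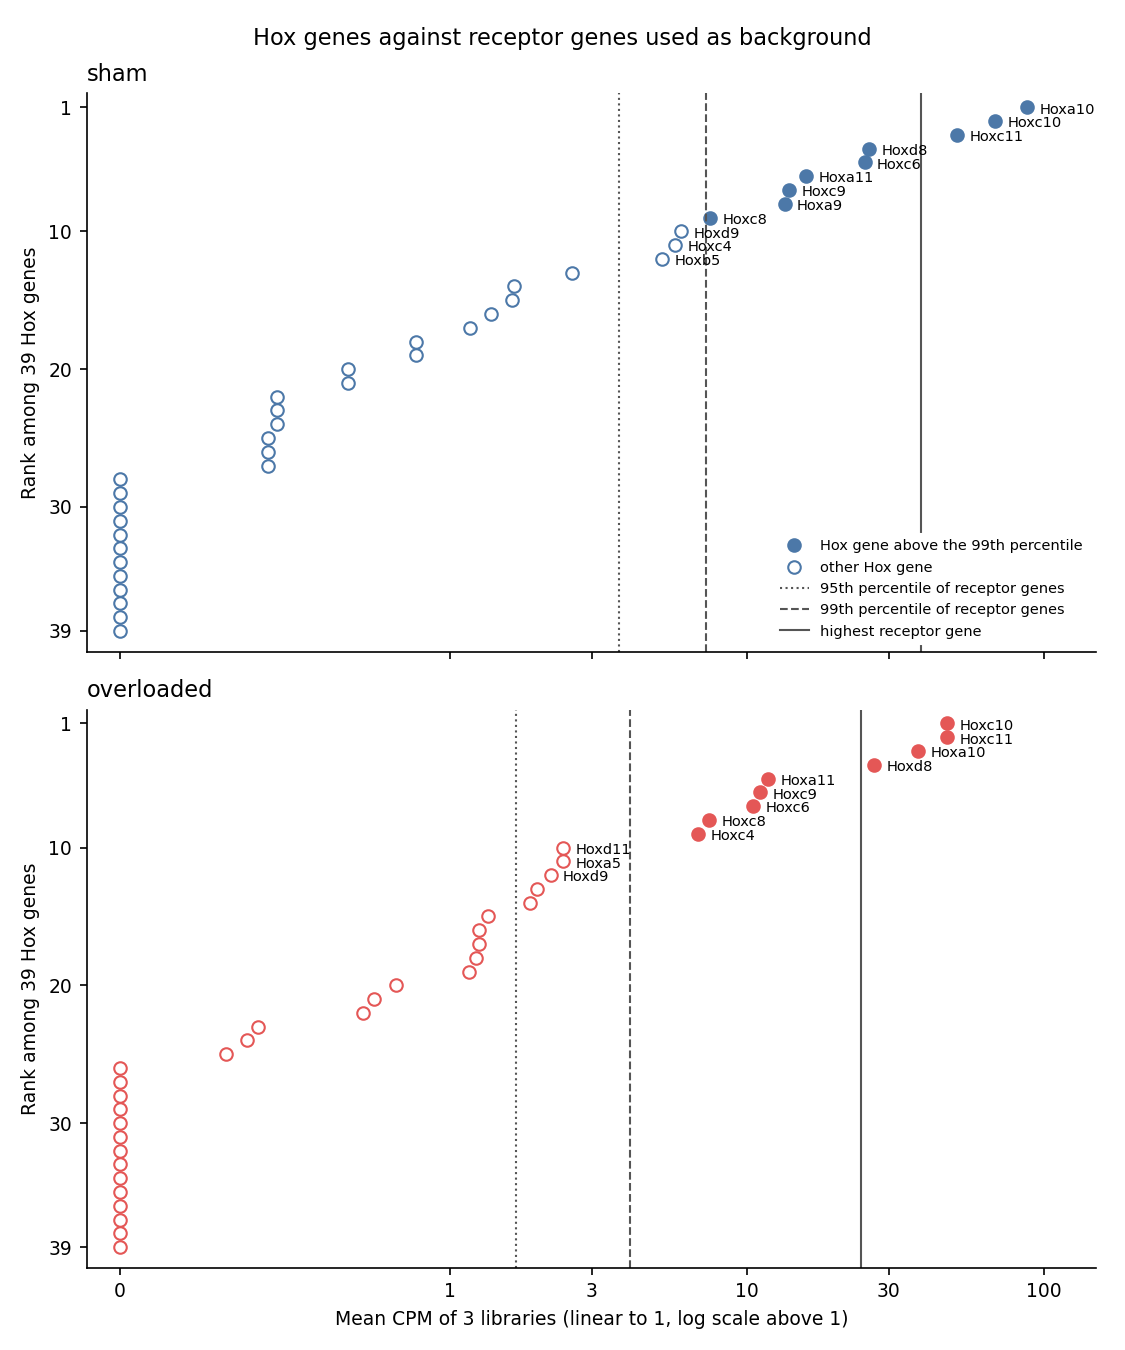
Mean CPM of each of the 39 Hox genes (horizontal axis, linear to 1 and logarithmic above) by rank in sham (top) and overloaded FAPs (bottom), with lines at the 95th and 99th percentile and at the highest of 1483 receptor genes. In sham Hoxa10, Hoxc10 and Hoxc11 lie beyond every receptor gene, and in overloaded muscle these 3 and Hoxd8.

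Levels of different genes were set side by side per length, as CPM per kb of exon, although 3' tag libraries need not scale with length. Hoxc10 stood highest in sham at 35.9 ± 8.49 CPM per kb, then Hoxa10 at 26.9 ± 5.21 and Hoxc11 at 25.3 ± 6.81 (SD, n = 3). The libraries of these 3 neighbours overlapped, so their order is within the spread. After a gap came Hoxc6 at 10.3 ± 1.85, Hoxd8 at 9.38 ± 4.84, Hoxa11 at 6.92 ± 3.23 and Hoxc9 at 5.69 ± 1.07 CPM per kb, each overlapping the next. Of the 10 genes above the receptor level in either group, Hoxc8, Hoxa9 and Hoxc4 came last at 2.65, 2.40 and 2.23 CPM per kb. In overloaded muscle Hoxc10 at a mean of 24.7 and Hoxc11 at 23.3 CPM per kb overlapped. Hoxa10 at 11.6 ± 1.05 CPM per kb lay below every library of Hoxc11 and overlapped Hoxd8 at 9.78 ± 1.41 (SD, n = 3). Without scaling by length, Hoxa10 stood highest in sham at a mean of 87.9 CPM, followed by Hoxc10 at 68.5 and Hoxc11 at 51.1 CPM.

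By cluster and per length, HoxC held 60.2% of the Hox level in sham and 65.5% in overloaded muscle, HoxA 27.3% and 19.3%, HoxD 9.62% and 12.8%, and HoxB 2.87% and 2.43%. Not scaled by length, HoxC held 51.3% of the Hox CPM in sham and 58.4% in overloaded muscle, and HoxA 35.3% and 24.02%. By position and per length, the 10 genes of groups 9 to 11 held 77.6% in sham and 75.0% in overloaded muscle. The 8 genes of groups 6 to 8 held 16.5% and 17.4%, nearly all of it Hoxc6, Hoxd8 and Hoxc8. The 15 genes of groups 1 to 5 held 4.88% and 6.85%, and the 6 genes of groups 12 and 13, the most distal in the limb, 1.02% and 0.703%. Not scaled by length, groups 9 to 11 held 76.4% of the Hox CPM in sham and 71.9% in overloaded muscle.

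**Figure D2:**
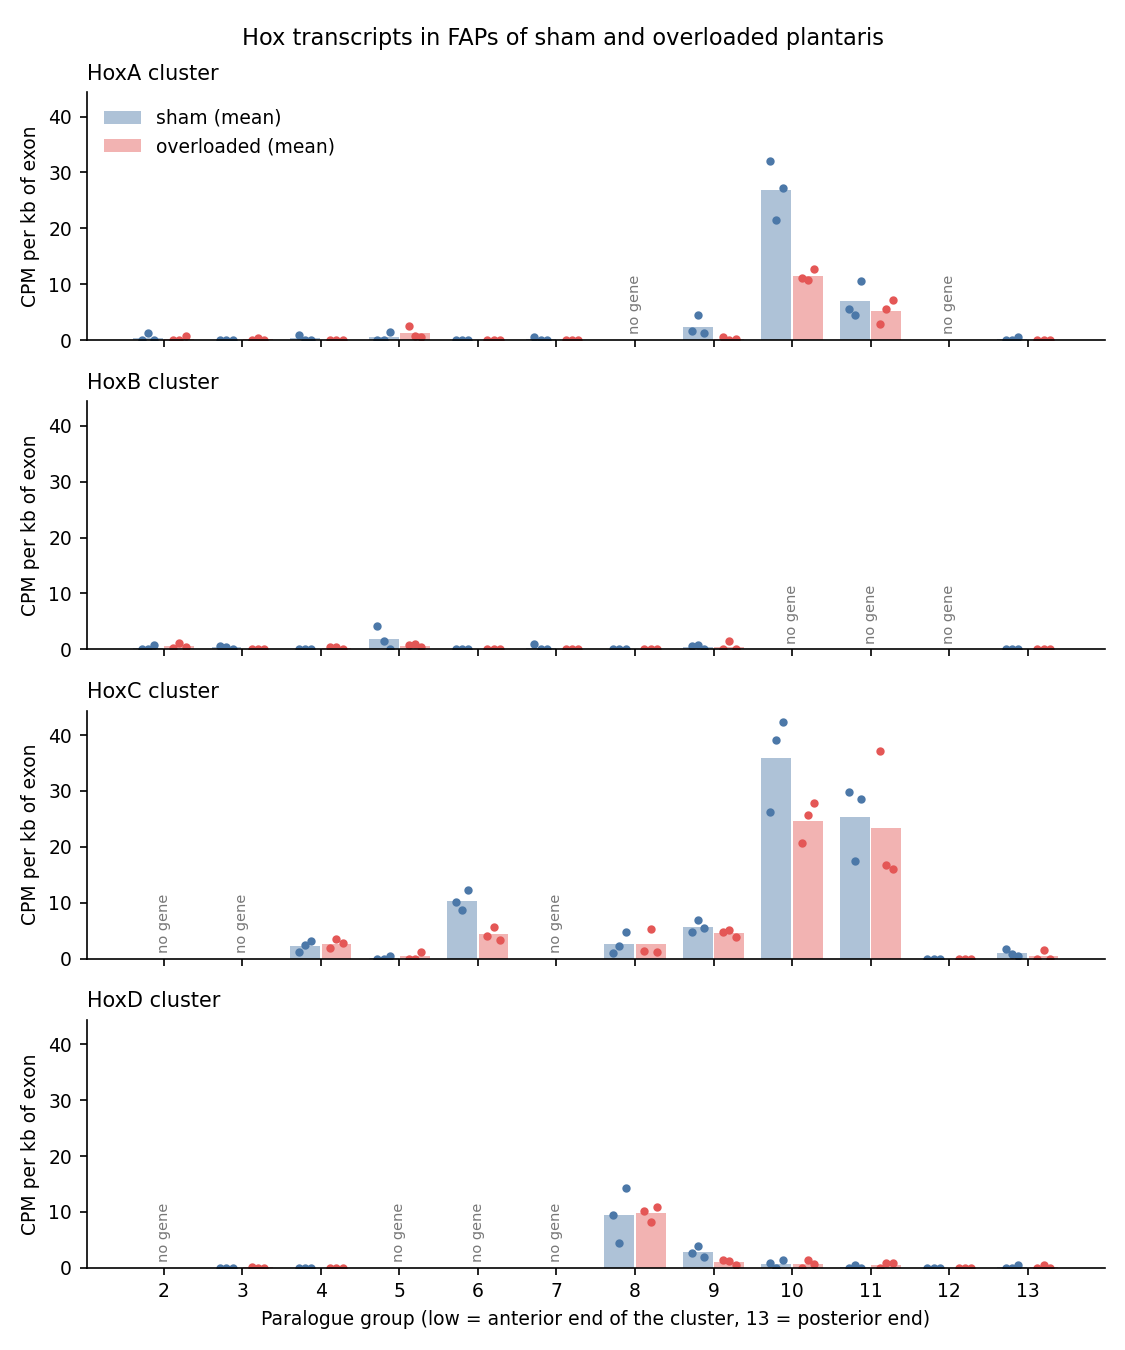
CPM per kb of exon (vertical axis) for the Hox genes of paralogue groups 2 to 13, arranged by cluster (panels) and paralogue group (horizontal axis); bars are means of 3 libraries and points are single libraries, blue for sham and red for overloaded. Most of the signal sits in groups 9 to 11 of HoxA, groups 4, 6 and 8 to 11 of HoxC and groups 8 and 9 of HoxD, and HoxB is nearly empty.

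Paralogues descend from one ancestral gene and resemble each other most in the homeobox, the stretch of 180 bases that encodes the homeodomain, so the last 60 bases of it are shown for groups 10 and 11. They were read from GENCODE M21 transcripts on GRCm38. Capitals mark bases that differ from the base of Hoxa10 at the same place.
Hoxa10: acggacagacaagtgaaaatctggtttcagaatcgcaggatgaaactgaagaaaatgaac
Hoxc10: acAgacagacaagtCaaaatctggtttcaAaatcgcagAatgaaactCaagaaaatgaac
Hoxd10: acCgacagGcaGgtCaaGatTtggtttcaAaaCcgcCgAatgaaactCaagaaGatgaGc
Hoxa11: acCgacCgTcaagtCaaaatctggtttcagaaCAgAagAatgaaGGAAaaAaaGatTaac
Hoxc11: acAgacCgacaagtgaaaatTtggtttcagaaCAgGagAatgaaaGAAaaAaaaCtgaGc
Hoxd11: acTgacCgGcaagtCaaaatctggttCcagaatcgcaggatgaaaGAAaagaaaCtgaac
Hoxc10 differs from Hoxa10 at 5 of these 60 bases and is 80.6% identical to it over the whole homeobox, while Hoxa11 and Hoxc11 are 86.7% identical to each other. Over their whole transcripts Hoxa10 and Hoxc10 share no identical run longer than 17 bases, and Hoxa11 and Hoxc11 none longer than 20. Across all 42 pairs within a paralogue group the longest run was 50 bases, shared by Hoxb9 and Hoxc9. How multimapping reads were handled was not given in the sources used here, and which bases the reads of these genes came from was not measured.

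Of the 6 Hox genes with enough counts for the test, 2 fell with overload, Hoxa10 and Hoxc6, and 0 rose (quasi-likelihood test of edgeR, adjusted p under 0.05). Among all 7207 genes tested 29.3% were called in either direction, 14.3% as lower and 15.04% as higher. With 2 of 6 called, the Hox genes were near the share in either direction, and 6 genes are too few to set them apart from it. At an unadjusted p under 0.05 edgeR also gave 2 lower and 0 higher Hox genes, DESeq2 called 1 and 0, and limma-voom 2 and 0. The median log2 fold change of the 6 genes was -0.51, beside -0.02 over all genes tested. The other 33 Hox genes had too few counts to test.

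In paralogue group 10, Hoxa10 (chromosome 6, 52231197 to 52240854, minus strand), which with its paralogues patterns the thigh segment of the hindlimb, was at 105, 70.5 and 88.8 CPM in sham libraries 1 to 3 and at 36.6, 35.1 and 41.6 CPM in overloaded libraries 1 to 3. Every overloaded library lay under every sham library. Of all 39 Hox genes 4 had groups that did not overlap, all with overloaded lower (Hoxa9, Hoxa10, Hoxc6 and Hoxd9), among them 2 of the 6 tested. Among all genes tested, 41.5% had groups that did not overlap, 20.3% with overloaded lower and 21.2% with overloaded higher. The mean went from 87.9 ± 17.0 to 37.8 ± 3.43 CPM (SD, n = 3), a log2 fold change of -1.23 with SE 0.28 (edgeR, adjusted p = 0.00107). Over 14 alternative settings the log2 fold change of Hoxa10 ran from -1.37 to -1.03 and it was called in all 14 (adjusted p 0.000689 to 0.0259). Summed receptor reads were higher in sham, except that overloaded library 2 exceeded sham library 3, and their part in the Hoxa10 values was not tested beyond the fit with the receptor share as a covariate (edgeR, adjusted p = 0.0259).

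Hoxc10 (chromosome 15, 102966796 to 102971893, plus strand), the HoxC member of the same group and a hindlimb gene, was at 50.1, 74.7 and 80.7 CPM in sham and at 39.4, 48.9 and 53.2 CPM in overloaded libraries. Sham library 1 lay within the range of the overloaded libraries, so the groups overlapped. Hoxc10 did not pass, with a log2 fold change of -0.54 and SE 0.29 (edgeR, adjusted p = 0.165), which is a fold of 0.689 with a 95% interval of 0.466 to 1.02 from the SE. Of its exon bases 8.70% overlap Hoxc5 on the same strand. Among the reads of group 10, Hoxa10 took 67.0%, 48.6% and 51.6% in sham libraries and 48.1%, 40.6% and 43.4% in overloaded ones. Whether Hoxa10 and Hoxc10 responded differently was not tested. Hoxd10, the third member, had 3 counts in each group and stayed under the receptor limit.

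In group 11, whose genes pattern the lower leg, Hoxc11 (chromosome 15, 102954427 to 102957708) was at 60.1, 35.3 and 57.9 CPM in sham and at 75.0, 33.9 and 32.4 CPM in overloaded libraries. Its highest and its lowest value both belonged to overloaded muscle, and the log2 fold change of -0.12 (SE 0.33) did not pass (edgeR adjusted p = 0.830), with a fold of 0.920 and an interval of 0.586 to 1.45. Hoxa11 (chromosome 6, 52242106 to 52245810) was at 12.9, 10.4 and 24.2 CPM in sham and at 6.73, 12.5 and 16.2 CPM in overloaded libraries, and did not pass either (edgeR log2 fold change -0.48, SE 0.50, adjusted p = 0.519). Of its exon bases 35.0% overlap Hoxa11os, an antisense transcript with 18 counts in all, and without a stated strand setting reads there cannot be told apart. Hoxd11 had 1 count in sham and 6 in overloaded muscle.

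Group 9 was represented by Hoxc9 and, in sham only above the background limit, by Hoxa9. Hoxc9 (chromosome 15, 102976439 to 102985099) was at 11.5, 16.6 and 13.5 CPM in sham and at 11.5, 12.5 and 9.25 CPM in overloaded libraries, with overlap. Hoxa9 (chromosome 6, 52223100 to 52231089), the neighbour of Hoxa10 on the chromosome, was read 6, 12 and 5 times in the sham libraries and 3, 0 and 1 times after overload. All 3 overloaded values lay under the sham values, and summed counts of 23 and 4 gave a depth-scaled ratio of 0.124. Its exact 95% counting interval of 0.0311 to 0.362 leaves out the spread among libraries. Hoxa9 had too few counts for the main test, and without the count filter its log2 fold change was -2.92 with SE 0.91 (edgeR, adjusted p = 0.0243). Hoxd9 had 11 counts in sham and 6 in overloaded muscle, also without overlap, at a ratio of 0.388 (counting interval 0.118 to 1.15), and Hoxb9 had 2 and 3.

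Among the more anterior genes, Hoxc6 (chromosome 15, 102998257 to 103011881) was at 24.3, 20.7 and 29.6 CPM in sham and at 9.62, 13.8 and 8.10 CPM in overloaded libraries. The groups did not overlap, and the mean went from 24.9 ± 4.46 to 10.5 ± 2.95 CPM (SD, n = 3), a log2 fold change of -1.26 with SE 0.44 (edgeR, adjusted p = 0.0306). That call rests on 49 and 28 counts. It was kept in 5 of 13 alternatives and lost in the other 8, among them DESeq2 (adjusted p = 0.0787), the fit without the count filter (edgeR, 0.153) and the fits that left out sham library 1 or 3 or overloaded library 1 or 3 (edgeR, 0.0690 to 0.151). Hoxc6 made up all the counts of group 6, since Hoxa6 and Hoxb6 had 0. Hoxd8 (chromosome 2, 74704615 to 74707933) was at 25.8, 12.4 and 39.0 CPM in sham and at 27.9, 22.6 and 30.1 CPM in overloaded libraries. The overloaded libraries of Hoxd8 lay inside the range of sham, with a log2 fold change of 0.01 and SE 0.39 (edgeR, adjusted p = 0.985), a fold of 1.01 with an interval of 0.596 to 1.71. Hoxc8 had 15 counts in sham and 19 in overloaded muscle, 12 of the latter in library 2, and Hoxc4 had 11 and 18.

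The HoxB cluster, which acts in the hindbrain and trunk, had no gene above the receptor limit. Its 10 genes held 38 counts together, 21 in sham and 17 in overloaded muscle. Hoxb5 had the most, 10 and 5, with 8 of the 10 in sham library 1. In groups 12 and 13, whose genes pattern the foot and digits, Hoxc13 had 5 and 3 counts, Hoxd13 1 and 1, and Hoxa13 1 and 0.

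Summed by cluster, HoxA stood at 129, 108 and 124 CPM in sham and at 51.0, 51.4 and 61.3 CPM in overloaded libraries, with no overlap and an overloaded to sham ratio of 0.454. Hoxa10 held most of that sum. HoxC stood at 156, 162 and 206 CPM in sham and at 144, 137 and 117 CPM in overloaded libraries, also without overlap, at a ratio of 0.760. HoxD overlapped, at 32.9, 22.8 and 47.1 against 31.7, 32.6 and 35.9 CPM, a ratio of 0.974. HoxB overlapped too, at 18.6, 10.4 and 4.04 against 3.85, 11.3 and 4.63 CPM. All 39 genes together stood at 336, 303 and 381 CPM in sham and 231, 232 and 219 CPM in overloaded muscle, a ratio of 0.668. No test was made on these sums, because they are scores over chosen members. By paralogue group, the sums of groups 6, 9 and 10 were lower in every overloaded library than in every sham library, while those of groups 8 and 11 overlapped, at 33.3 ± 17.4 against 34.3 ± 3.01 CPM and 67.6 ± 17.8 against 61.3 ± 17.7 CPM (SD, n = 3). In RNA from pooled cells, fewer cells that express a gene and less RNA per cell cannot be told apart.

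**Figure D3:**
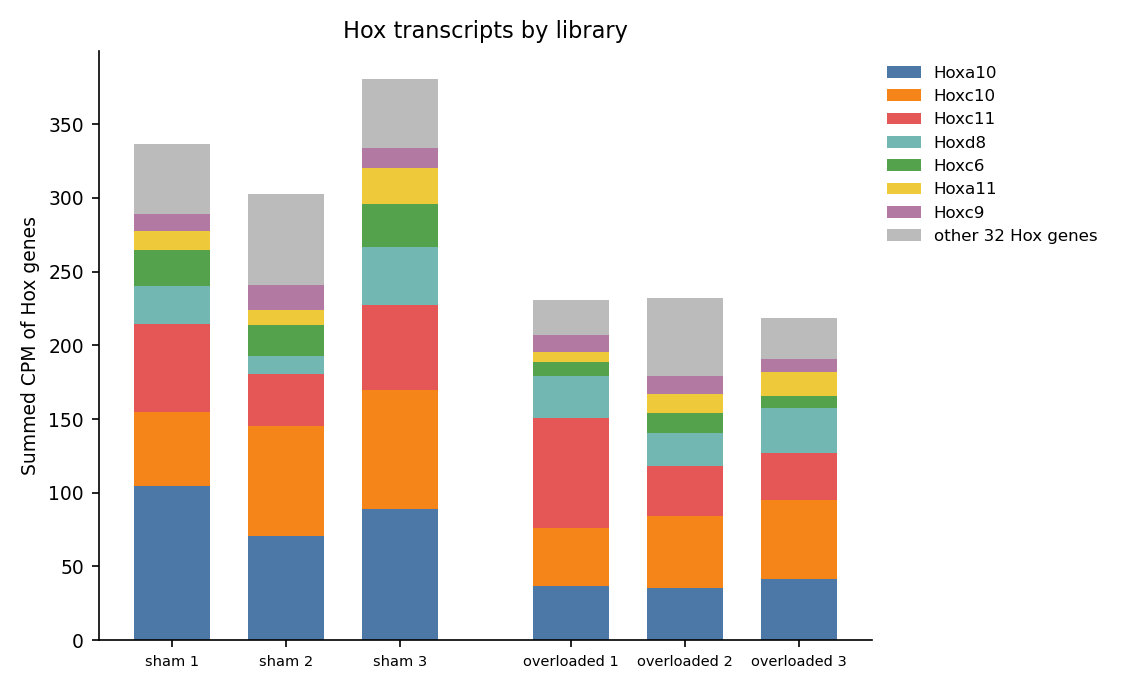
Summed CPM of the Hox genes in each library (bars), split by gene. Segments are shares of reads and are not scaled by length. The sham bars reach 336, 303 and 381 CPM and the overloaded bars 231, 232 and 219 CPM, and the Hoxa10 segment at the base is shorter in every overloaded library.

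Reads of the other gene models inside the clusters were few, 82 in all over 46 models, of which 15 had a count. Hotair, a long noncoding RNA of the HoxC cluster between Hoxc11 and Hoxc12, was read 1, 3 and 6 times in the sham libraries and 0, 0 and 1 times after overload. Scaled to CPM, its groups did not overlap, with overloaded lower, on these few counts. The antisense transcripts Hoxa11os, Hoxb3os and Hoxd3os1 were read 8, 1 and 1 times in sham and 10, 0 and 2 times in overloaded muscle, and Hotairm1 had 0 and 1. None of them was tested.

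Hox proteins bind DNA together with TALE homeodomain cofactors of the Pbx, Meis and Pknox families. Of 9 such genes 7 were tested, and 1 rose, 0 fell and 6 were not called, beside 29.3% called among all genes tested, with a median log2 fold change of -0.49. At an unadjusted p under 0.05 edgeR gave 1 higher and 1 lower, DESeq2 called 0 and 0, and limma-voom 1 and 0. The one that rose was Pknox2, at 25.8, 33.2 and 22.9 CPM in sham and 48.1, 51.4 and 59.0 CPM in overloaded libraries, without overlap (edgeR log2 fold change 0.97, SE 0.32, adjusted p = 0.0225). Pknox2 was called in 9 of 14 alternatives and lost in DESeq2 (adjusted p = 0.0508), without sham replicate 3 (edgeR, 0.0928) and without overloaded replicate 3 (edgeR, 0.0703), among others. Meis2 was at 54.4, 51.9 and 35.0 CPM in sham and 15.4, 17.6 and 50.9 CPM in overloaded libraries, with overloaded library 3 inside the sham range. Its log2 fold change of -0.75 (edgeR adjusted p = 0.150) became -1.48 without that library (edgeR adjusted p = 0.00721). Meis1 had 13 and 21 counts and was not tested.

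Of 42 limb and axial patterning factors 13 were tested, and 2 fell, 0 rose and 11 were not called, beside 14.3% called lower among all genes tested, with a median log2 fold change of -0.27. At an unadjusted p under 0.05 edgeR gave 1 higher and 2 lower, DESeq2 called 0 and 0, and limma-voom 0 and 2. Gli3, the transcription factor that sets the front of the limb bud against Hedgehog signals, was at 68.7, 62.2 and 80.7 CPM in sham and 43.3, 32.6 and 46.3 CPM in overloaded libraries, without overlap (edgeR log2 fold change -0.79, SE 0.29, adjusted p = 0.0344). Eya2, a transcriptional coactivator, was at 34.6 ± 10.2 and 15.2 ± 7.93 CPM (SD, n = 3; log2 fold change -1.13, edgeR adjusted p = 0.0367), and its groups overlapped. Gli3 was called in 5 of 14 alternatives and lost without sham library 1 or 3 or any one overloaded library (edgeR, adjusted p 0.0549 to 0.158). Eya2 was called in 5 of 13 and lost without sham library 1 or 2 or overloaded library 2 or 3 (edgeR, adjusted p 0.112 to 0.169). Hindlimb and forelimb are told apart by Tbx4 and Pitx1 on one side and Tbx5 on the other. Tbx4 had 21 counts in sham, 13 of them in library 1, and 12 in overloaded muscle. Its means of 10.8 and 4.56 CPM lay above the level that 99% of receptor genes stayed under (7.30 and 4.05 CPM). Sham library 3 at 5.38 CPM and overloaded library 1 at 2.89 CPM lay under that level. Tbx5, with 2 and 4 counts, and Pitx1, with 7 and 11, lay under it in both groups.

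Polycomb and Trithorax proteins keep Hox genes shut or open through marks on histones. The list of 30 chromatin regulators of the Hox clusters also held other factors, among them Ctcf, Nipbl, Dot1l, Zbtb16 and Cdx genes. Of the 30 genes 22 were tested, and 2 rose, 5 fell and 15 were not called, with a median log2 fold change of -0.14. With 7 of 22 called, the list was near the 29.3% called among all genes tested. DESeq2 called 2 higher and 4 lower, and limma-voom 3 and 5. Both enzymes that write the silencing mark of Polycomb repressive complex 2 fell. Ezh1 was at 45.8, 33.2 and 40.4 CPM in sham and 12.5, 10.03 and 13.9 CPM in overloaded libraries (edgeR log2 fold change -1.71, SE 0.38, adjusted p = 0.000982). Ezh2 was at 57.3, 70.5 and 65.9 CPM in sham and 22.1, 36.4 and 20.8 CPM in overloaded libraries (edgeR log2 fold change -1.29, SE 0.32, adjusted p = 0.00249), and with the share of receptor reads as a covariate its adjusted p was 0.180 (edgeR). Their partners Suz12 and Eed did not pass the test, at 37.9 ± 0.689 against 45.4 ± 13.3 CPM and 22.4 ± 14.5 against 24.3 ± 1.55 CPM (SD, n = 3). Dot1l, a histone methyltransferase tied to active genes, rose from 47.1 ± 8.65 to 107 ± 4.02 CPM (edgeR log2 fold change 1.16, SE 0.26, adjusted p = 0.000977). Zbtb16, a zinc finger factor that acts on Hox genes in the limb bud, was at 97.4, 114 and 174 CPM in sham and 17.3, 16.3 and 5.78 CPM in overloaded libraries (edgeR log2 fold change -3.27, SE 0.34, adjusted p = 1.74e-08). Kmt2a, the Trithorax methyltransferase that keeps Hox genes active, did not pass, at 221 ± 60.7 in sham and 155 ± 13.9 CPM in overloaded muscle (edgeR, adjusted p = 0.0905). With the receptor covariate, 1 of these regulators was higher and 2 were lower.

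**Figure D4:**
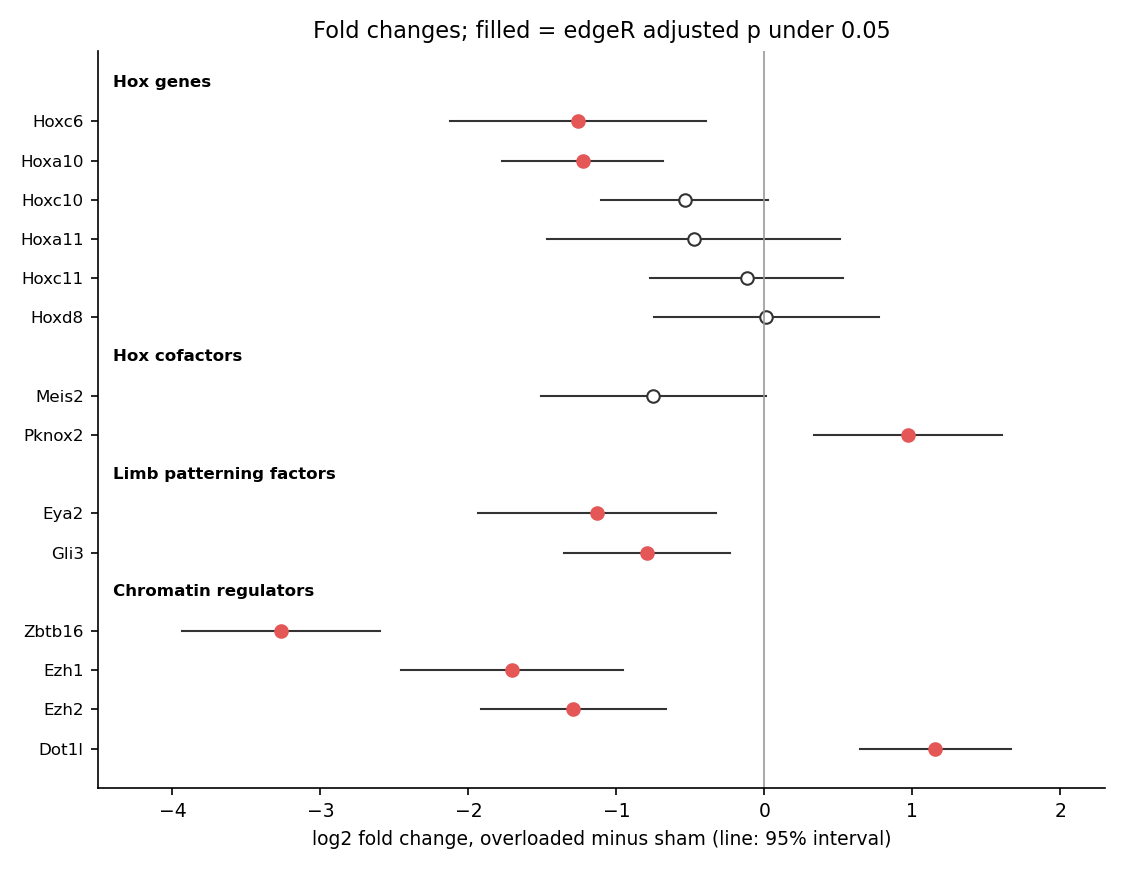
Log2 fold change of overloaded against sham libraries (horizontal axis) for the 6 tested Hox genes and for named cofactors, limb patterning factors and chromatin regulators; lines are 95% intervals from the standard error and filled points passed edgeR at an adjusted p under 0.05. Hoxa10 and Hoxc6 lie near -1.2, and the other 4 Hox genes have lines that cross 0.

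Markers of other cells were low or moved as follows, and their part in the Hox values was not tested. All 10 FAP markers were tested, with 2 higher and 5 lower, beside 15.04% and 14.3% of all genes tested. Tendon markers summed to 133 to 170 CPM in sham and 3380 to 4360 CPM in overloaded libraries, nearly all of it Thbs4, and without Thbs4 to 48.4 to 57.3 and 55.2 to 105 CPM. The tendon factor Scx had 4 counts in sham and 21 in overloaded muscle. Endothelial markers summed to 122 to 219 and 33.5 to 74.0 CPM. Their largest member, Tek, fell from 119 ± 11.9 to 27.0 ± 4.18 CPM (edgeR, adjusted p = 5.59e-07), and without it the sums overlapped, at 8.07 to 91.6 and 8.10 to 50.2 CPM. Leukocyte markers summed to 15.8 to 24.9 and 1.92 to 20.1 CPM, with Adgre1 and Lyz2 at 0. Myogenic markers summed to 38.7 to 56.0 and 24.05 to 41.4 CPM with Myod1 at 0, pericyte and smooth muscle markers to 143 to 195 and 108 to 157 CPM, and Schwann cell markers to 39.0 to 56.0 and 70.2 to 86.8 CPM with Sox10 at 0. Without Ncam1 the Schwann cell sums overlapped, at 4.30 to 22.8 CPM in sham and 1.16 to 5.02 CPM in overloaded libraries. Of the Schwann cell list Ncam1 rose (log2 fold change 1.09, edgeR adjusted p = 0.00505).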

How the data were processed

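RNA of sorted FAPs was sequenced after a CEL-Seq2 type of library protocol, in which transcripts are tagged near the 3' end, per the labels' protocols. The authors deposited raw counts per gene for 3 sham and 3 overloaded libraries. The submitters' processing notes name build GRCm38 and the tools HISAT2 2.2.1, Trim Galore 0.6.6, DESeq2 1.28.1 and featureCounts 2.0.1. The annotation, strand setting and handling of molecular identifiers were not given in the sources used here. Counting intervals, made from summed counts, cover counting error only. Intervals from the SE also take in the spread among libraries. Positions and exon lengths were taken from GENCODE M21, which held all 54100 identifiers. Exons of 16 of the 39 Hox genes overlap another gene.

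Counts were tested with edgeR 4.0.16 (R 4.3.3): genes kept by filterByExpr (minimum count 10, minimum total 15), TMM, robust quasi-likelihood F test, and Benjamini-Hochberg adjustment over 7207 genes. CPM use the same library sizes. The SE is the log2 fold change divided by the square root of F. The coefficient of variation that edgeR calls biological was 21.2%, read from its common dispersion among these libraries, and it may be technical. Libraries of one group differed by more than sampling noise (chi-square per degree of freedom 4.34 to 8.19). The fit was checked on simulated counts. Members, gene lists and marker lists were chosen with earlier results of these data known. Named were Hox genes above the receptor level or called, up to 4 called members of each list in order of adjusted p, and Pitx1, Tbx4, Tbx5, Meis1, Meis2, Ezh2 and Zbtb16; Suz12, Eed, Kmt2a and the marker genes were chosen after their values were seen. Some genes covered by these rules are not reported here. Alternatives were DESeq2 1.42.0, limma-voom (limma 3.58.1), library size only, other count filters, thinning to 500402 counts, leaving out each library, and the replicate number as a block. The receptor share as a covariate and the background limit per kb of exon were added after the data were seen.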

Additional observations from a re-analysis of the deposited data

How the results depend on the processing

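The count of lower Hox genes, 2, became 1 with DESeq2, a minimum count of 30, thinning to equal depth and the background covariate, and was 1 to 2 over the 6 fits that left out a library. Hoxa10 was called in each of these. No fit gave a higher Hox gene. With the covariate, which was added after the data were seen, the genes called among all tested went from 1084 higher and 1027 lower to 501 and 392. In the 3 lists of cofactors, patterning factors and chromatin regulators, 3 higher and 7 lower genes became 1 and 2 with the covariate. The 7 lower became 4 with DESeq2, without a count filter and with a minimum count of 30, and ran from 4 to 7 with a library left out. The direction of Hoxd8, Hoxc11 and Hoxa11, none of them called, turned under some settings. The log2 fold change of Hoxd8 was -0.055 with library size only, -0.15 after thinning, -0.52 with the covariate and -0.27 to 0.46 with a library left out. That of Hoxc11 ran from -0.62 to 0.11 and that of Hoxa11 from -0.67 to 0.0062 with a library left out. The number of Hox genes above the receptor level was 9 in each group. At the 95th percentile of receptor genes it became 12 in sham and 14 in overloaded muscle. With more than 3 counts in the group as a whole and reads in at least 2 of its libraries, it became 13 and 15. Per kb of exon, a limit added after the data were seen, it became 12 and 11. Leaving out sham library 3 gave 8 in sham, and leaving out overloaded library 2 gave 10 in overloaded muscle. The cause of these shifts was not tested, apart from the smaller number of genes that a minimum count of 30 leaves to test.

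With the replicate number as a block (paired fit), 2 Hox genes were lower and 0 higher, and 1043 genes were higher and 993 lower among all tested. The deviations of libraries with the same number correlated only weakly (r 0.00822, 0.0144 and 0.0149), so the numbers were not taken to pair them, and not every library correlated best with its own number. The replicate block changed no call among the 6 tested Hox genes, Zbtb16, Dot1l, Ezh1, Ezh2, Pknox2, Gli3, Eya2 and Meis2. Depth limits the rest: Hoxa11, with 63 counts over the 6 libraries, was the least abundant Hox gene tested, and Hoxc9, with 56, was not tested.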
